A study of Mus musculus with 6 samples.

Results

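The genes described here encode P-selectin (Selp), glycoproteins that can carry selectin ligands (Selplg, Cd44 and Cd24a) and enzymes that build the ligand sugars (Fut7, Fut4, Gcnt1, St3gal4 and St3gal6). They are 9 of the 22064 genes listed in the table, of which 15605 had values and 12546 had enough counts to be tested. The genes were picked by name with the contrast between treated and control cells already known, so their values in that contrast are a description and no p-value is given for them. All 9 had values in every sample and passed the filter on low counts.

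CD8+ T cells were taken from BALB/c spleens and profiled by bulk RNA sequencing of poly(A) RNA. The BALB/c mice of the study were bought as females aged 6 to 8 weeks. In the 3 NET samples the cells were kept for 48 h with neutrophil extracellular traps (NETs, the DNA and granule protein webs that neutrophils release) at 10 μg/mL, collected from neutrophils stimulated with PMA. The 3 control samples received no NETs, and no deletion or transgene is named for either group. The sources used here do not say if each sample had its own mouse or culture. A p-value therefore reflects the spread among these 6 samples alone, and that spread may be technical.

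Selectins are adhesion receptors that let leukocytes tether and roll. P-selectin is best known from the granules of platelets and endothelial cells, and E-selectin (Sele) from activated endothelium. Their main leukocyte ligand, PSGL-1, binds after its O-glycans have been branched, sialylated and fucosylated, and the sugar made this way is called sialyl Lewis X.

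Selp had the greatest fold difference of the 9 genes, and Fut4 the greatest of the enzyme genes. The 250 bases upstream of the annotated start are shown for both. Of the 11 promoter windows found for 7 of the 9 genes, only that of Selp held a match to any of the motifs searched. Each motif was in 1.72% to 7.02% of all mouse promoters, and the share with a match to any of them was not counted. The sequences are from RefSeq, build GRCm38.p6, and read 5′ to 3′ on the strand of each gene, which is plus for Selp (chr1:164115014-164115263) and minus for Fut4 (chr9:14752123-14752372). Capitals mark the motif matches.
Selp: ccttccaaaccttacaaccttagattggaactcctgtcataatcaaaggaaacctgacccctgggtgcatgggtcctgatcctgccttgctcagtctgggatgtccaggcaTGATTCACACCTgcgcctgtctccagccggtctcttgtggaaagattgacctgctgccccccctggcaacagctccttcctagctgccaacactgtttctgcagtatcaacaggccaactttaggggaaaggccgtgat
Fut4: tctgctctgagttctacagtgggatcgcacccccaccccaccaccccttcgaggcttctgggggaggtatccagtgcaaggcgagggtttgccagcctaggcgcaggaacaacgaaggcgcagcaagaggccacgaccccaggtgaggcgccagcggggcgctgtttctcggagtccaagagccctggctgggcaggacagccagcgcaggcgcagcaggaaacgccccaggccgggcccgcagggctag
The capitals in Selp hold an AP-1 motif (TGANTCA), which starts at position -139 from the annotated start, and a T-box motif (AGGTGNGA, found on the opposite strand), which starts at position -135 and overlaps it. Among 32851 mouse promoter windows of the same 250 bases before the start, 6.75% held the AP-1 letters and 4.66% the T-box letters. Also searched on both strands were CCACACCC (KLF, in 3.2% of all promoters), GGGNNTTCC (NF-kappa B like, 4.98%), TTCNNNGAA (STAT, 7.02%), CACGTG (E-box, 6.02%) and ACCGGAAG (ETS, 1.72%). They were in none of the 11 windows. These matches describe letters only, and binding was not measured.

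In NET samples 6 of the 9 genes were higher, 2 were lower and 1 overlapped between the groups. Values are CPM, the counts of each library expressed at a common depth, scaled between libraries by the trimmed mean of M values (TMM). The higher genes were Selp, Cd44, Fut4, Fut7, Gcnt1 and St3gal6, and the lower ones were Selplg and Cd24a. Among all 12546 tested genes, the highest control sample lay below the lowest NET sample in 27.4%, and the reverse held in 27.2%, which makes 54.7% without overlap. By the edgeR quasi-likelihood test with Benjamini-Hochberg adjustment, 44.6% of tested genes passed an adjusted p of 0.05, of which 22.3% were higher and 22.3% lower, each as a share of tested genes. The same 6 and 2 genes lie past this threshold, and nothing is read from that, since they were chosen with the contrast known. The median log2 fold change of the 9 genes was 1.20, beside -0.01 over all tested genes.

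**Figure D1:**
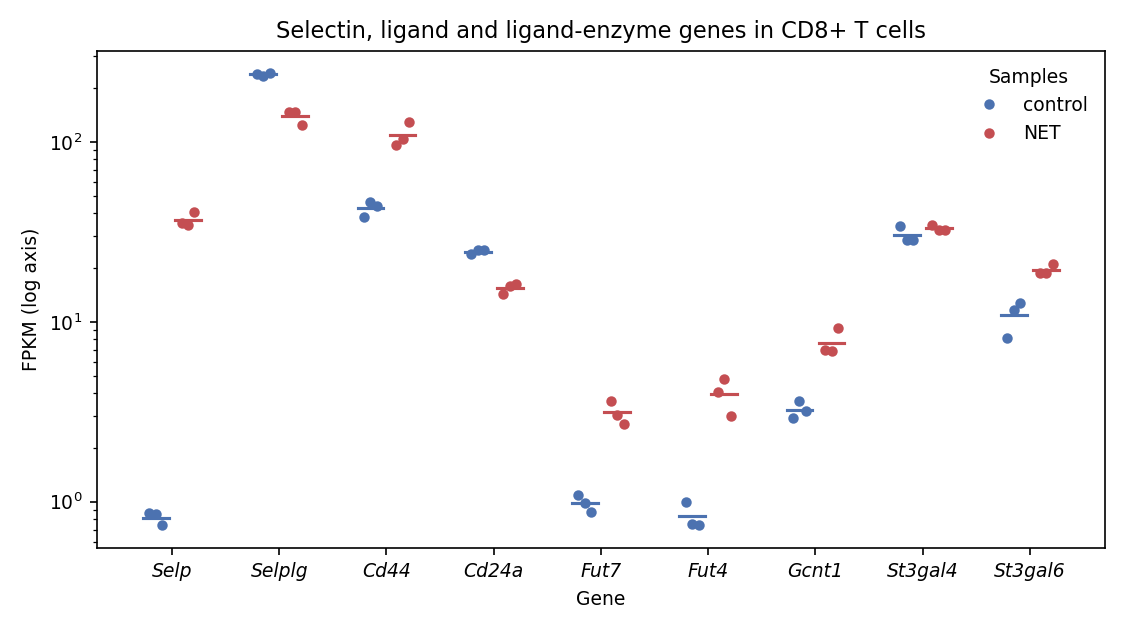
FPKM (log axis) of the 9 genes in each of the 3 control and 3 NET samples (points), with group means as lines. Selp lies between 0.74 and 0.86 in controls and between 34.61 and 40.82 in NET samples, whereas the points of St3gal4 overlap.

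Selp (gene 20344, chr1:164115264-164150026, plus strand) was low in control cells and much higher in NET samples. The NET samples gave 119, 118 and 138 CPM and the controls gave 2.91, 2.93 and 2.56 CPM. All 3 NET samples were far above all 3 controls, and the replicates of each group lay close together. The mean was 125 ± 10.9 CPM (SD, n = 3) with NETs and 2.80 ± 0.207 CPM (SD, n = 3) without, a log2 fold change of 5.48 ± 0.12 (SE), or 44.5-fold. The control values rest on 48 to 55.7 estimated counts per library. Of the 12546 tested genes, 30 had a higher log2 fold change. Parts of its exons are shared with the noncoding genes Gm16587 and Gm16548 on the other strand (186 and 438 of 4413 exon bases), and reads there cannot be told apart unless the counting used strand, which is not given in the sources used here.

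P-selectin is a classical platelet and endothelial product, so the markers of those cells were measured in the same libraries. The 12 platelet and megakaryocyte markers with values summed to 131 to 145 CPM in controls and to 91.2 to 107 CPM in NET samples. Most of that sum was Itgb3, an integrin chain that T cells also make, which fell from 110 ± 5.75 to 66.0 ± 13.4 CPM (SD, n = 3). Without Itgb3 the other 11 markers summed to 26.4 to 29.5 CPM in controls and to 25.9 to 40.1 CPM with NETs, ranges that overlap. Pf4, a chemokine of platelet granules, rose from 5.40 ± 0.385 to 8.93 ± 2.37 CPM (SD, n = 3, adjusted p = 0.0125), a log2 fold change of 0.72. Itga2b (8.46 to 11.5 CPM) and Ppbp (6.17 to 4.23 CPM) did not pass the test. Of 8 tested markers on that list, 2 rose and 1 fell.

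The 10 endothelial markers summed to 90.0 to 111 CPM in controls and to 43.7 to 55.3 CPM with NETs. Pecam1, which T cells also make, was most of that sum, and it fell from 91.9 to 36.5 CPM. Without it the other 9 summed to 8.97 to 13.4 CPM in controls and to 12.0 to 13.7 CPM with NETs, ranges that overlap. Of the 4 tested only Pecam1 passed, whereas Egfl7 (4.72 and 5.22 CPM) and Vwf (4.15 and 4.32 CPM) did not pass. Neutrophils were the source of the NETs, and their markers summed to 20.7 to 24.1 CPM in controls and 40.1 to 67.0 CPM with NETs. Of the 11 with values, 7 had enough counts to be tested and 6 of those rose, and some, such as Lcn2, reached the test only through the NET samples. The other 4 (Camp, Ltf, Ngp and Elane) stayed between 0 and 0.878 CPM in all samples, and 3 of them overlapped between the groups. Among those tested Mpo, a granule enzyme, rose from 8.48 to 12.5 CPM, and Lcn2 from 0.232 to 9.68 CPM, while Cxcr2 (10.5 and 8.21 CPM) did not pass. Their part in the Selp values was not tested.

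**Figure D2:**
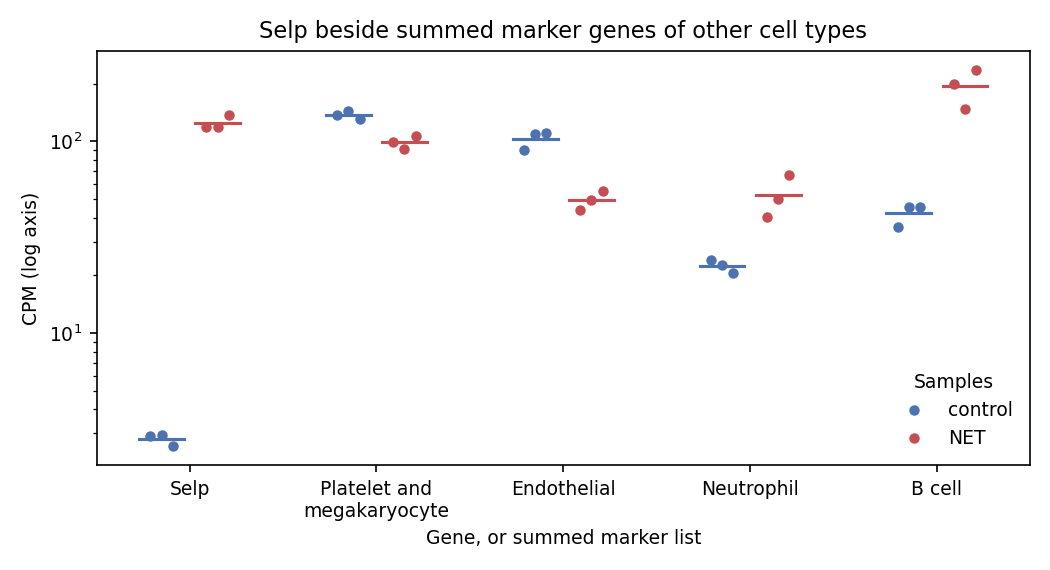
CPM (log axis) of Selp and of the summed markers of 4 other cell types in each of the 3 control and 3 NET samples (points), with group means as lines. The summed platelet and endothelial markers are lower in NET samples through Itgb3 (110 to 66.0 CPM) and Pecam1 (91.9 to 36.5 CPM), and those of neutrophils and B cells are higher.

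Selplg (gene 20345, chr5:113817798-113832528, minus strand) encodes PSGL-1, which binds selectins. It gave 271, 273 and 231 CPM in NET samples and 446, 438 and 458 CPM in controls. Every NET sample was below every control, and NET 3 was the lowest of all. The mean was 258 ± 24.1 CPM with NETs and 448 ± 9.97 CPM without (SD, n = 3 each), a log2 fold change of -0.79 ± 0.10 (SE). The markers of CD8 T cells were lower as well: all 8 fell, their median log2 fold change was -0.59 and their sum went from 3396 to 3887 CPM in controls to 2325 to 2602 CPM with NETs. Cd8a, the coreceptor chain, fell from 1222 to 817 CPM and Lck, the kinase bound to it, from 641 to 457 CPM, so the labelled cell type was plainly present in both groups. In bulk RNA, fewer cells of a type and less RNA per cell cannot be told apart.

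Cd44 (gene 12505, chr2:102811141-102901669, minus strand) encodes the hyaluronan receptor that marks activated and memory T cells and that can carry selectin ligands. It gave 415, 459 and 555 CPM in NET samples and 165, 205 and 198 CPM in controls. The groups lay well apart, with NET 3 the highest and control 1 the lowest. The log2 fold change was 1.33 ± 0.13 (SE), or 2.51-fold.

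Cd24a (gene 12484, chr10:43579169-43584265, plus strand) encodes a small mucin-like protein, anchored by lipid, that can act as a P-selectin ligand and is abundant on B cells and immature T cells. It gave 25.2, 28.1 and 28.5 CPM in NET samples and 41.7, 44.9 and 45.2 CPM in controls. All NET samples were lower, and the 3 values of each group were close. The log2 fold change was -0.69 ± 0.10 (SE). Of 12 B cell markers tested, 11 rose and none fell, beside 22.3% higher over all tested genes. Their sum was 35.7 to 45.3 CPM in controls and 148 to 237 CPM with NETs. Among those that rose were Cd22 (4.05 to 39.4 CPM), Cd79b (12.1 to 27.0 CPM) and Cd79a (4.87 to 28.7 CPM). The part of B cells in the Cd24a values was not tested.

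Fut7 (gene 14347, chr2:25422351-25426374, plus strand) encodes the fucosyltransferase that completes sialyl Lewis X in leukocytes. It was a low gene with 6.96, 5.79 and 5.15 CPM in NET samples and 2.03, 1.79 and 1.81 CPM in controls. All NET samples were above all controls. The log2 fold change was 1.66 ± 0.19 (SE), or 3.17-fold, on 33 to 38.7 estimated counts per control library.

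Fut4 (gene 14345, chr9:14748459-14752122, minus strand) encodes the second fucosyltransferase of mouse leukocyte selectin ligands. It gave 14.6, 17.6 and 10.7 CPM in NET samples and 3.59, 2.76 and 2.72 CPM in controls. The groups did not overlap, but the NET samples varied more than for any other of the 9 genes, with a coefficient of variation of 24.0%. The log2 fold change was 2.24 ± 0.21 (SE), or 4.71-fold. Neutrophils also express Fut4, and 6 of the 7 neutrophil markers tested rose in NET samples, beside 22.3% higher over all tested genes. Some of these markers, such as Lcn2, reached the test only through the NET samples, as given above for Selp. The part of neutrophils in the Fut4 values was not tested.

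Gcnt1 (gene 14537, chr19:17326141-17372844, minus strand) encodes the enzyme that starts the core 2 branch on which PSGL-1 carries its ligand. It gave 31.1, 31.2 and 41.4 CPM in NET samples and 13.4, 17.0 and 14.7 CPM in controls. NET 3 was the highest, and no NET sample came near the controls. The log2 fold change was 1.20 ± 0.14 (SE), or 2.30-fold.

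The sialyltransferase genes St3gal4 and St3gal6 encode enzymes that cap the branch before it is fucosylated. St3gal4 (gene 20443, chr9:35046576-35116864, minus strand) gave 71.5, 67.7 and 66.9 CPM in NET samples and 70.1, 60.2 and 60.2 CPM in controls. Control 1 lay within the NET range, so the groups overlapped, and the log2 fold change was 0.11 ± 0.09 (SE). Of its 2923 exon bases, 412 are shared with 4930581F22Rik on the other strand, with the same limit as for Selp.

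St3gal6 (gene 54613, chr16:58469742-58524260, minus strand) gave 42.3, 43.4 and 48.3 CPM in NET samples and 19.1, 28.3 and 29.9 CPM in controls. The groups did not overlap, and control 1 was well below the other controls. The log2 fold change was 0.79 ± 0.15 (SE), or 1.73-fold. Of its exon bases, 1603 of 6172 are shared with Dcbld2 on the other strand, with the same limit as for Selp. Dcbld2 was at 7.37 CPM in controls and 8.09 CPM in NET samples and did not pass the test (adjusted p = 0.556). The same limit holds for the Dcbld2 counts. Within a sample, the FPKM (fragments scaled for transcript length and library size) of St3gal4 was 2.24 to 4.16 times that of St3gal6 in controls and 1.55 to 1.84 times with NETs, and these ranges did not overlap.

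Levels of different genes are compared per length, in FPKM. In control samples the order ran from Selplg (237 ± 4.30 FPKM, SD, n = 3) through Cd44 (42.9), St3gal4 (30.3), Cd24a (24.5), St3gal6 (10.8) and Gcnt1 (3.25) to Fut7 (0.983), Fut4 (0.830) and Selp (0.817). The ranges of Fut7 and Fut4 overlapped, as did those of Fut4 and Selp. Every other pair of neighbours in this order was separate.

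With NETs, Selp moved from the last place to the third. Selplg (139 ± 12.8 FPKM, SD, n = 3) and Cd44 (109 ± 17.0) came first with overlapping ranges, ahead of Selp (37.0 ± 3.38) and St3gal4 (33.2 ± 1.17), whose nearest samples were 34.61 and 34.54. St3gal6 (19.5), Cd24a (15.4) and Gcnt1 (7.66) followed, and Fut4 (3.96) and Fut7 (3.13) came last with overlapping ranges. The Selplg to Cd44 ratio, 5.00 to 6.24 in controls, was 0.964 to 1.53 with NETs. Selplg was 273 to 325 times Selp in controls and 3.03 to 4.22 times with NETs.

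Sample NET 3 was the highest of its group for 5 of the 9 genes and the lowest for the other 4, among them Selplg, Fut7 and Fut4. No sample of either group was highest for all 9. The coefficient of variation ran from 2.23% for Selplg to 22.5% for St3gal6 in controls, where control 1 set the latter, and from 3.54% for St3gal4 to 24.0% for Fut4 in NET samples. The libraries numbered 1 stood apart from the others: of the genes with an estimated count above 0, 21.8% (NET 1) and 20.4% (control 1) had an exactly whole value at the 2 decimals given, beside 31.2% to 32.8% in the other 4. On the second principal component of log2 CPM (8.29% of the variance) they lay at 19.3 and 23.5 and the other 4 between -12.2 and -7.97. Without both of them, the 9 genes kept the direction of their fold change. Totals ran from 18696355 to 19425700 estimated counts, so depth was alike in all 6.

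The other genes of the pathway were tested from lists of 122 genes in all. These lists were also chosen with earlier results of these data known, so the counts and adjusted p-values given for them are a description. Of these, 100 could be tested, 33 rose and 19 fell, which is 52.0% beside the 44.6% of all tested genes. Their median log2 fold change was 0.09.

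**Figure D3:**
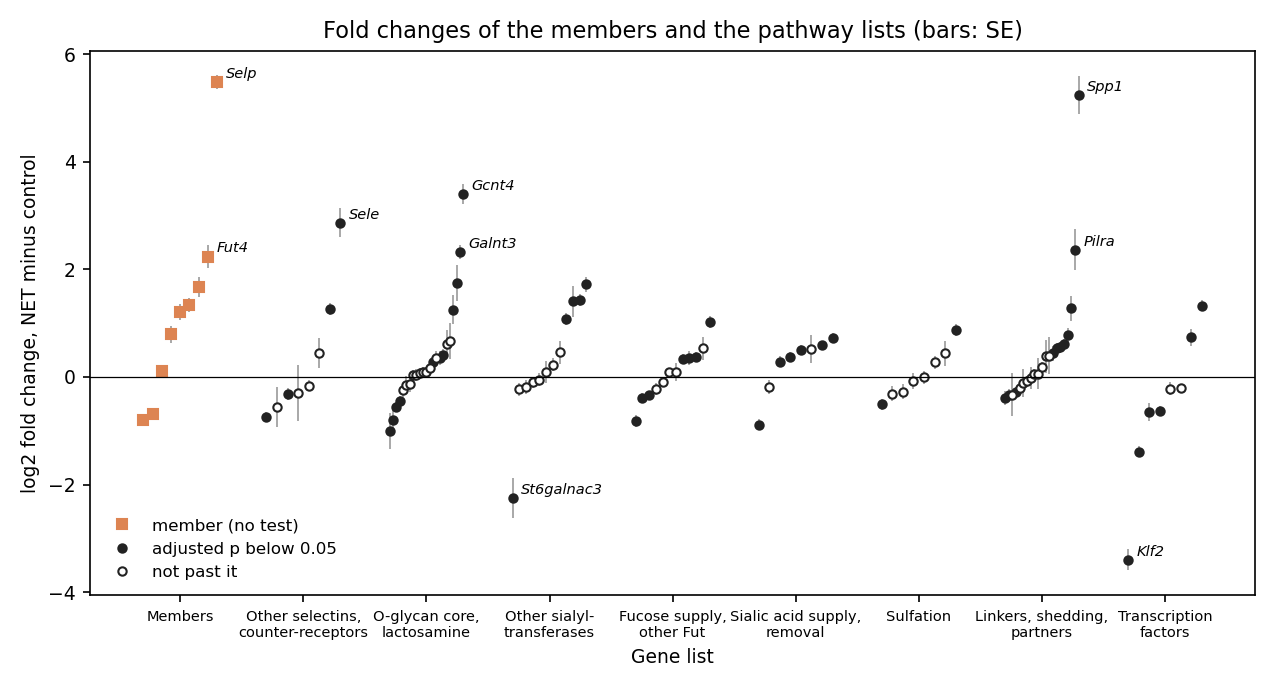
Log2 fold change (NET minus control) with its SE for the 9 members (orange squares, no test) and for the tested genes of 8 pathway lists (circles, filled where the adjusted p was below 0.05). Selp at 5.48 and Spp1 at 5.24 lie highest and Klf2 at -3.40 lowest.

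Sele was barely detected, at 2.47, 2.33 and 2.68 CPM with NETs and 0.364, 0.380 and 0.267 CPM without, with a log2 fold change of 2.86 ± 0.27 (SE, adjusted p = 2.1e-05). The groups did not overlap, and Sele passed the filter on low counts only through the NET samples, where it is high.

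Spn, which encodes the mucin CD43 and can act as an E-selectin ligand on T cells, fell from 506 ± 27.7 to 302 ± 19.6 CPM (SD, n = 3, adjusted p = 0.000127). Of 8 tested genes on the list of other selectins and counter-receptors, 2 rose, 2 fell and 4 did not pass, with a median of -0.23. The second that fell was Cd164, a sialomucin, at -0.32 (adjusted p = 0.0491), and it missed the threshold under 13 of 17 alternative settings, with adjusted p-values from 0.00305 to 0.191. Leaving out NET 1, NET 2, control 2 or control 3 brought the number that fell to 1. The Golgi glycoprotein gene Glg1, which encodes an E-selectin ligand, had -0.16 and did not pass, and Podxl had 0.44 and did not pass.

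Among O-glycan core and lactosamine enzymes, 7 of 23 tested genes rose, 4 fell and 12 did not pass, with a median of 0.10. Gcnt4, a further core 2 branching enzyme, rose from 2.64 ± 0.388 to 28.0 ± 5.61 CPM (SD, n = 3), a log2 fold change of 3.40 ± 0.19 (SE, adjusted p = 6.16e-07). Galnt3, which starts O-glycans, rose from 12.9 ± 2.05 to 64.3 ± 3.15 CPM (adjusted p = 5.56e-07), whereas Galnt2 of the same family fell from 86.0 to 58.4 CPM (adjusted p = 0.000425). The initiating enzyme Galnt1 (0.17) and the galactosyltransferase B4galt5 (0.10) did not pass, and B3gnt7, which extends lactosamine chains, rose from 0.689 to 2.34 CPM (adjusted p = 0.00201). Without NET 1 or without NET 3 the number that fell was 2.

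Of 12 other sialyltransferases tested, 4 rose, 1 fell and 7 did not pass, with a median of 0.16. St6gal1, which adds the alpha 2,6 linkage and competes for the same acceptor ends, rose from 21.6 ± 0.515 to 58.1 ± 7.29 CPM (SD, n = 3, adjusted p = 5.47e-06). B cell markers also rose in NET samples (11 of 12 tested), and their part in the St6gal1 values was not tested. St3gal5, which makes the ganglioside GM3, rose from 5.09 to 16.8 CPM and St3gal2 from 17.0 to 36.0 CPM. St6galnac3 fell from 2.83 to 0.588 CPM (adjusted p = 0.000752), and it passed the filter on low counts only through the controls, where it is high. St8sia1 (-0.10) and St8sia4 (0.09) did not pass. Without NET 3 the number that fell was 2.

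Of 8 tested genes for sialic acid supply and removal, 5 rose, 1 fell and 2 did not pass, with a median of 0.44. Cmas, which activates sialic acid, rose from 93.1 ± 1.01 to 153 ± 14.3 CPM (SD, n = 3, adjusted p = 0.000179), and Slc35a1, which carries it into the Golgi, rose from 26.4 to 39.6 CPM. The sialidase gene Neu3 fell from 44.2 to 23.9 CPM (adjusted p = 0.000139) while Neu1 rose by 0.50 on the log2 scale. Nanp (-0.18) and Npl (0.52) did not pass.

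Of 12 tested genes for fucose supply and other fucosyltransferases, 4 rose, 3 fell and 5 did not pass, with a median of 0.09. Pofut2, which fucosylates thrombospondin repeats, rose from 15.8 to 32.1 CPM (adjusted p = 6.53e-05), and Fut8, which fucosylates the N-glycan core, rose by 0.36 on the log2 scale. Fut11 fell from 21.0 to 11.9 CPM (adjusted p = 0.000343) and the fucosidase gene Fuca2 fell by 0.39 on the log2 scale. Pofut1 (0.08) and Fuca1 (-0.09) did not pass. Without control 2 the number that rose was 2.

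PSGL-1 needs sulfation at its tyrosines to bind P-selectin, and of 8 tested sulfation genes 1 rose, 1 fell and 6 did not pass, with a median of -0.04. Tpst1, a tyrosine sulfotransferase, rose from 13.0 to 23.8 CPM (adjusted p = 0.000143), and Papss1, which makes the sulfate donor, fell from 27.2 to 19.2 CPM (adjusted p = 0.00275). Tpst2 had a log2 fold change near 0 and Impad1 had -0.28, and neither passed. Without NET 3 the number that rose was 2, and without control 1 it was 2 with 3 that fell.

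Of 21 tested linkers, sheddases and partners of PSGL-1, CD44 and CD24, 8 rose, 3 fell and 10 did not pass, with a median of 0.18. Spp1, which encodes the CD44 ligand osteopontin, gave 391, 334 and 425 CPM in NET samples and 5.41, 17.5 and 7.53 CPM in controls. The groups lay far apart, and the log2 fold change was 5.24 ± 0.36 (SE, adjusted p = 2.21e-06). The proteoglycan core gene Srgn rose from 305 to 465 CPM, the hyaluronidase gene Hyal2 from 6.24 to 10.7 CPM and the receptor gene Pilra from 1.09 to 5.67 CPM. The linkers Msn (-0.07) and Ezr (-0.20) did not pass. The number that fell was 1 without NET 2, NET 3 or control 1 and 0 without control 3.

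Of 8 transcription factors linked to selectin ligand synthesis in T cells, 2 rose, 4 fell and 2 did not pass, with a median of -0.42. Klf2, which keeps naive T cells quiescent, gave 11.5, 10.7 and 6.83 CPM in NET samples and 123, 88.7 and 94.4 CPM in controls, a log2 fold change of -3.40 ± 0.20 (SE, adjusted p = 7.9e-07). Foxo1, which acts upstream of Klf2, fell from 232 to 88.3 CPM (adjusted p = 3.96e-06). Rara, a retinoic acid receptor gene, rose from 26.8 to 67.1 CPM (adjusted p = 5.47e-06). Tbx21, which encodes T-bet, fell from 84.6 to 54.8 CPM (adjusted p = 0.000274), and Stat6 (-0.21) and Eomes (-0.22) did not pass.

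Sele and Selp lie near each other on chromosome 1. In a window reaching 250000 bases beyond them on either side, chosen after the values were seen, 11 tested protein-coding genes are described. Apart from Selp, Kifap3 (0.51), Sele (2.86), Slc19a2 (0.69) and Blzf1 (0.50) rose. F5, the coagulation factor gene next to Selp, was at 1.12 CPM in controls and 0.832 CPM with NETs and did not pass (adjusted p = 0.399). Scyl3, BC055324, Mettl18, Ccdc181 and Nme7 did not pass either.

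**Figure D4:**
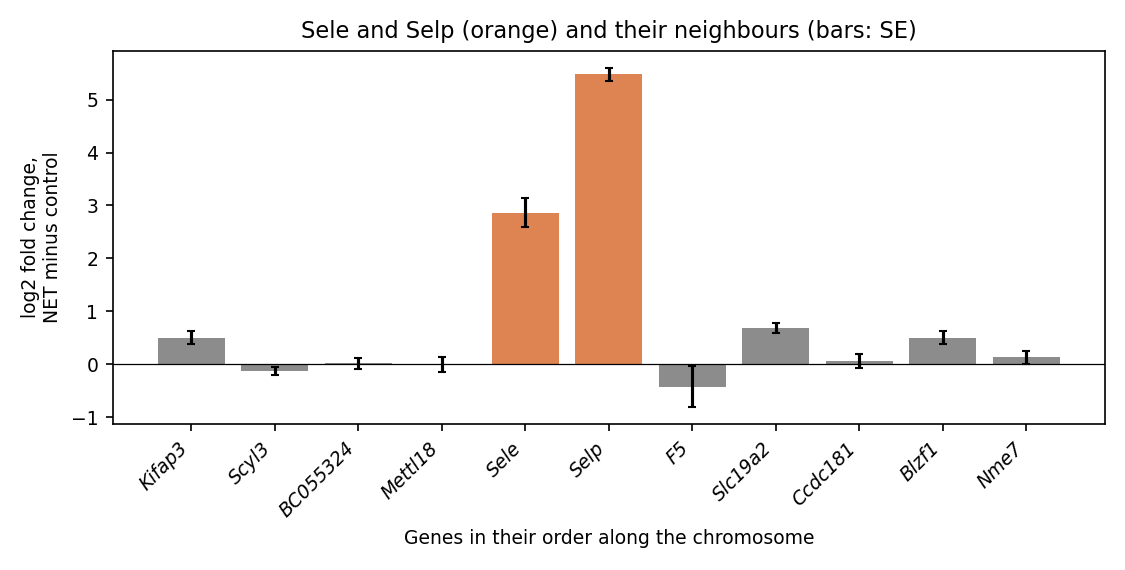
Log2 fold change (NET minus control) with its SE for 11 tested genes at and around Sele and Selp, in their order along the chromosome and not to scale of distance. Sele (2.86) and Selp (5.48), in orange, stand above the others.

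The genes whose pattern over the 6 samples was most like that of Selp, by the root mean square distance of log2 CPM after subtracting the control mean, were Ccnd1, Upp1 and Ehd2. Ccnd1, which encodes cyclin D1, was at a distance of 0.175 and went from 1.51 to 73.2 CPM. Upp1, a uridine phosphorylase gene, was at 0.221 and went from 1.49 to 57.6 CPM, and Ehd2, a membrane trafficking gene, was at 0.228 and went from 1.53 to 66.1 CPM. For Selplg they were Ssbp3 (0.034), Pacs1 (0.040) and Kif18b (0.048), each lower with NETs.

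Among the remaining marker lists, 5 of 9 tested macrophage and dendritic cell markers rose and 1 fell. Cd68 rose from 9.38 to 18.7 CPM and Itgax fell from 9.92 to 5.14 CPM, while Lyz2 (35.6 and 39.4 CPM) did not pass. Of 4 CD4 T cell markers 1 rose and 3 fell, with Cd4 at 46.3 and 28.4 CPM. Of 5 tested mast cell and basophil markers 1 rose and 1 fell. Cpa3 rose from 14.4 to 21.4 CPM and Kit fell from 140 to 33.9 CPM, while Mcpt8 (10.7 and 12.8 CPM) did not pass. Of 1 tested NK cell marker (Eomes, above) and 2 tested erythroid markers none passed. No marker with values on any list was at 0 in all 6 samples. The part of these cells, or of the B cells and neutrophils above, in the values of the 9 genes and of the other pathway genes was not tested.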

How the data were processed

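CD8+ T cells from mouse spleen were profiled by bulk RNA sequencing of strand-marked (dUTP), paired-end poly(A) libraries, with 3 NET and 3 control samples grouped by the labels. The authors deposited estimated counts and FPKM per gene. The submitters' processing notes name the build mm10. The aligner, the counter, the annotation and whether counting used strand are not given in the sources used here. Blank genes (6459 of 22064) were treated as missing, not as 0. Estimated counts, 18696355 to 19425700 per sample, were rounded to whole numbers, filtered with filterByExpr, scaled by TMM and tested with edgeR 4.0.16 (R 4.3.3) by the two-sided quasi-likelihood test, with group as the only term and Benjamini-Hochberg adjustment over 12546 genes (threshold 0.05). The script was tested on simulated data. The study's methods name DESeq2, which was an alternative here (1.42.0), as were limma and voom (3.58.1), other scalings and filters, log2(FPKM + 1) and log2(FPKM + 0.1), a replicate block and leaving out libraries. Levels of the 9 genes were compared with each other in deposited FPKM. Marker genes were summed in CPM, which is not scaled for transcript length, so long transcripts weigh more in those sums.

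The 9 genes and all gene lists were chosen with earlier results of these data known. Named genes are the 9 members and, of each pathway list, up to 4 genes with the smallest adjusted p past the threshold, the 2 with the highest CPM not past it, and always Sele and Spn. Of each cell type list the 3 genes with the highest mean CPM were taken, and those at 0 in all samples. For the members with the highest and lowest fold change, the 3 genes of most similar pattern on log2 CPM (prior count 2) were taken. Dcbld2 and the neighbours of the selectin genes were named for their position, after their values were seen. A gene taken by these rules that is not named is counted in its list and not reported here. Gene positions and promoter sequences are from RefSeq GRCm38.p6, and overlaps of exons were read from the reference annotation of the same assembly.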

Additional observations from a re-analysis of the deposited data

How the results depend on the processing

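The 9 genes kept the sign of their log2 fold change under all 18 alternatives. This is a description, since they were chosen with the contrast known. The log2 fold changes of Selp (4.38), Fut7 (1.05) and Fut4 (1.42) were smaller on log2(FPKM + 1), and that of Selp was 5.34 on log2(FPKM + 0.1), as the pseudocount damps low values. Of 30 named pathway genes past the threshold, 28 kept direction and threshold under all 17 alternatives. Of 16 not past it, 6 passed under at least 1 alternative. Cd164 and Fuca2 did not keep theirs, Fuca2 only without control 3 (adjusted p = 0.0501). For other selectins and counter-receptors, the number that fell was 1 under relative log expression, upper quartile and library-total scaling, no filter, a 1 CPM filter, voom, log2(FPKM + 1) and log2(FPKM + 0.1), and 1 to 2 when 1 library was left out. The number of O-glycan enzymes that fell was 2 with DESeq2 and 2 to 3 when 1 library was left out. The number of linkers and partners that fell was 1 under upper quartile scaling and log2(FPKM + 1) and 0 under log2(FPKM + 0.1), and 0 to 2 when 1 library was left out. Leaving out 1 library gave 2 to 5 fucose genes that rose, 1 to 2 sialyltransferases that fell, and 1 to 2 sulfation genes that rose with 1 to 3 that fell. Without both libraries numbered 1, 3 sulfation genes fell.

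Replicate numbers are shared by the groups, but the correlations of deviations between same-numbered samples were 0.43, 0.14 and 0.04. The numbers were not taken to pair the samples, since the third is under 0.1 and not every sample correlated best with its own number, but the libraries numbered 1 deviated together (-0.31 to -0.19 with the other numbers). With a replicate block, the genes called were 7018 in place of 5590, and 2 sialyltransferases fell, 2 sulfation genes rose and 3 fell. Under the block 6 transcription factors fell in place of 4, and Stat6 (adjusted p = 0.0248), Eomes (0.0207), Ezr (0.0381) and Impad1 (0.00431) passed. Tpst2 and St8sia4, which did not pass in any setting, changed sign: Tpst2 was 4.55e-05 under relative log expression, 0.043 under upper quartile, 0.014 under library totals, 0.010 with the 1 CPM filter, 5.22e-05 with DESeq2, 0.013 on log2(FPKM + 1), 0.013 on log2(FPKM + 0.1) and -0.13 to 0.082 without 1 library. St8sia4 was -0.013 without both libraries numbered 1 and -0.14 to 0.27 without 1 library. The cause of these shifts was not tested. Depth limits genes with low control values, such as Selp, Fut7, Sele and B3gnt7.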
